A study of Mus musculus with 11 samples.

Results

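In mouse epidermal keratinocytes, 9524 stretches of the genome were listed as accessible by ATAC-seq in all 4 combinations of genotype and wounding. ATAC-seq cuts DNA with a transposase that reaches only chromatin not tightly packed, so that places with many cuts are called as peaks. The 4 peak lists were put together and overlapping or touching peaks were merged, which gave 42950 regions. The 9524 shared regions were chosen by the peak calls themselves, as the merged regions that overlapped a peak in every list. Of the others, 9303 overlapped a peak in 3 lists, 8823 in 2 lists and 15300 in 1 list. Presence in the lists and the fold enrichment behind it are therefore a description of how the regions were selected, and neither was tested.

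The study compared wild-type mice (WT) with mice in which floxed *Grhl3* was deleted by a Cre driven from the keratin 14 promoter (cKO), both labelled C57BL/6 (C57BL/6J in the methods) and 8 weeks old. Full-thickness punch wounds of 4 mm were made, and skin within 1 mm of the wound was taken on day 3, beside unwounded skin. Keratinocytes were sorted as cells positive for CD49f and negative for blood, endothelial and erythroid surface markers. Each ATAC-seq library was a pool of 4 wounds or skin pieces from 2 mice, with 1 library for each of WT unwounded, WT wounded, cKO unwounded and cKO wounded. RNA-seq had 2 libraries each of WT unwounded, WT wounded and cKO wounded keratinocytes and 1 of cKO unwounded.

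Accessible chromatin falls mainly at promoters, where transcription starts, and at enhancers, which lie at a distance from the genes they act on. Promoters of widely expressed genes are often rich in CpG and stay accessible in many cell types, while accessibility of enhancers differs more between cell types and states. In epidermis, enhancers are bound by factors such as p63, AP-1, TEAD, C/EBP and the grainyhead-like family, to which GRHL3 belongs.

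Depth and labels were looked at before the regions. The RNA-seq libraries held 13497283 to 16807451 reads counted on genes, the fewest in the cKO unwounded library. *Grhl3* itself had 1893 and 1398 counts in the WT unwounded libraries, 1831 and 1388 in the WT wounded libraries, 1029 in the cKO unwounded library, and 1765 and 1491 in the cKO wounded libraries. Counts over the whole gene do not separate the targeted exons, so genotype was taken from the labels. The cKO unwounded library stood apart from the other 6. It had 14854 counts of *Xist*, which is transcribed from the inactive X chromosome of females, where the others had 3 to 32. It had 0 counts over 4 genes of the Y chromosome, where the others had 2580 to 3589. Sex and condition therefore cannot be told apart in the comparison that uses this library, and that comparison is given below with and without genes on chromosomes X and Y. The methods name both males and females among the mice used. In the ATAC-seq lists, chromosome X held 2.49%, 2.48%, 2.53% and 2.60% of peaks in WT unwounded, WT wounded, cKO unwounded and cKO wounded keratinocytes, and no list had a peak within 1 kb of the *Xist* start. Chromosome Y held 6, 8, 10 and 5 peaks in the same order. For the ATAC-seq libraries the methods give a minimum number of reads for all, and the depth of each was not analysed here. Group sizes are stated for the RNA libraries, but not in words that tell whether those of a group came from separate animals, so the p-values below measure spread between samples.

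The lists differed in length, with 10769 peaks in WT unwounded, 36872 in WT wounded, 29364 in cKO unwounded and 22474 in cKO wounded keratinocytes. The shared regions held 89.1% of the WT unwounded peaks, 26.0% of the WT wounded, 32.8% of the cKO unwounded and 43.0% of the cKO wounded peaks. The shortest list thus set most of the membership, and 8543 of the 9303 regions in 3 lists lacked only a WT unwounded peak. The number of shared regions moves with list length: with each list reduced to its strongest 10769 peaks it was 5490. In each list 0.577% to 1.36% of the shared regions held more than 1 peak.

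Fold enrichment, the reads in a peak over the local background of the same library, was taken from the highest peak of a region in each list. Its median over the shared regions was 4.25 in WT unwounded (quartiles 3.83 and 4.84), 5.24 in WT wounded (4.53 and 6.09), 4.86 in cKO unwounded (4.20 and 5.64) and 4.94 in cKO wounded keratinocytes (4.29 and 5.73). In regions not shared by all 4 lists the medians were 3.73, 3.99, 3.74 and 4.08 in the same order. WT unwounded had the lowest of the 4 values in 62.7% of shared regions, and WT wounded had the highest in 47.8%. The ratio of the highest to the lowest of the 4 values had a median of 1.31 (quartiles 1.21 and 1.44), and it stayed under 1.5 in 7888 regions, or 82.8%. It reached 2 in 28 regions.

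Between conditions, the median log2 ratio of fold enrichment over the 9524 regions was 0.26 for WT wounded over WT unwounded, with 85.5% of regions above 0. It was 0.03 for cKO wounded over cKO unwounded (55.4% above 0), 0.16 for cKO unwounded over WT unwounded (75.4%) and -0.07 for cKO wounded over WT wounded (37.8%). These ratios compare libraries whose single depths are not known here, with 1 library in each condition, so how far depth moved them was not tested. Across regions, log2 fold enrichment in pairs of libraries had Pearson correlations from 0.667 (WT unwounded and WT wounded) to 0.770 (WT wounded and cKO unwounded), a description over 9524 regions that were all selected on the same lists.

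Values just inside and just outside the rule show that it was not a threshold on strength. The shared regions with the lowest geometric mean of the 4 fold enrichments were a pair on the mitochondrial genome, chrM:12568-16226 (1.52, 1.51, 1.51 and 1.5 in WT unwounded, WT wounded, cKO unwounded and cKO wounded) and chrM:71-3715 (1.51 in each). Next came chr9:3009307-3010030 and chr9:3012196-3013445, with geometric means of 1.69 and 1.71, and 98.9% and 97.3% of their bases soft-masked as repeats. Just outside, among regions in 3 lists, the highest geometric mean was 7.54 at chr2:68935589-68936223, which had 6.79, 6.93 and 9.11 in WT wounded, cKO unwounded and cKO wounded keratinocytes and no peak in WT unwounded. The next was chr16:10411898-10412315 with 7.01, 7.77 and 7.23 and again no WT unwounded peak. Membership at that end turned on the shortest list.

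Shared regions were wide. Their median width was 761 bases (quartiles 597 and 966), against 558 in 3 lists, 422 in 2 and 263 in 1. Merging peaks from more lists can only widen a region, so width follows in part from the rule. The shared regions spanned 7.73 Mb together, and 26 were at least 2000 bases wide, of which 23 had a gene start within 1 kb. The widest, chr17:39843099-39848740, spanned 5642 bases at the start sites of 4 genes, among them *Gm26917* and *Gm42418*, with fold enrichments of 1.79, 1.78, 1.79 and 1.80. The next, chr1:24611599-24616120, spanned 4522 bases and had 2.16, 2.17, 2.17 and 2.17, and 98.8% of its words of 31 bases also occurred on the mitochondrial genome. It was 1 of 5 nuclear regions with at least 50% of such words. The pair on the mitochondrial genome came after these, at 3659 and 3645 bases. Next among nuclear regions were chr14:19416866-19419399 at *Gm21738* (2534 bases, 85.4% soft-masked), chr17:13550671-13553143 in an intron of *2700054A10Rik* (2473 bases, 97.8% soft-masked) and chr1:10231580-10233845 at the start of *Arfgef1* (2266 bases, 6.22% soft-masked). Of these 5 nuclear regions, that of *Arfgef1* alone lay neither at mitochondrial sequence, nor at predicted genes, nor in masked repeats.

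The regions with the highest geometric means were narrow and nearly level across conditions. The strongest, chr6:103649019-103649362 in an intron of the cell adhesion gene *Chl1*, had 21.1, 21.4, 21.6 and 21.8 in WT unwounded, WT wounded, cKO unwounded and cKO wounded keratinocytes. The next 4 lay outside genes at chr12:3109799-3110167, chr3:159939351-159939749, chr16:98107445-98107837 and chr19:61331212-61331629, with geometric means of 19.7, 18.0, 18.0 and 17.8 and 69.5% to 82.9% of their bases soft-masked. In all, 41 regions had a geometric mean of at least 10, and 3 of these held words of the mitochondrial genome. Among all shared regions, 177 (1.86%) were at least 50% soft-masked, and among the 56 with a geometric mean under 3 this held for 22. How reads that map to several places were treated is not known for these lists, so the values at repeats are given as listed.

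Regions were also ranked by the ratio of wounded to unwounded fold enrichment. The ranking used the mean over genotypes, so a region named need not differ much in both. The highest wounded to unwounded ratio, averaged over genotypes, was at chr15:41612136-41612682 in an intron of *Oxr1*, an oxidation resistance gene. Its fold enrichment was 3.78 and 3.83 in WT and cKO unwounded keratinocytes and 7.18 and 7.33 in WT and cKO wounded keratinocytes, a log2 ratio of 0.93 and 0.94. Next were chr3:152151995-152152485 within *Gipc2* (3.56 to 5.01 in WT and 3.27 to 7.03 in cKO) and chr9:14588694-14589087 in an intron of *Amotl1*, which encodes a tight junction protein (3.61 to 5.44 and 3.15 to 6.25). The lowest ratio was at chr9:123924128-123925512, whose nearest annotated start, that of the chemokine receptor gene *Ccr1*, lay 43180 bases away. It went from 9.31 to 3.78 in WT and from 5.89 to 4.31 in cKO. Then came chr13:68116743-68117288 (5.60 to 4.35 and 4.84 to 3.23) and chr3:142191588-142191866 (7.28 to 4.35 and 4.76 to 4.34). With 1 library in each condition these are ends of a distribution and carry no test.

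Gene starts were taken from the basic transcripts of the GENCODE annotation. A start lay within 1 kb of 5272 of the 9524 shared regions, or 55.4% (95% Wilson interval 54.4% to 56.4%). The share was 31.6% for regions in 3 lists (30.6% to 32.5%), 24.4% in 2 lists (23.5% to 25.3%) and 16.8% in 1 list (16.2% to 17.4%). The intervals cover counting error only, and the wider span of shared regions also brings more starts within reach. A start lay inside 4930 shared regions, or 51.8%. Of the regions with no start within 1 kb, 2131 (22.4% of the 9524) had their midpoint in an intron and 1998 (21.0%) outside genes, while 41 fell in a coding exon, 39 in an untranslated part of an exon and 43 in an exon of a non-coding transcript. Among regions in 1 to 3 lists the shares in introns and outside genes were 39.1% and 35.4%. The 4252 shared regions without a start within 1 kb are called distal below. Their median distance to the nearest start was 16865 bases (quartiles 7112 and 36158), and 208 (4.89%) lay more than 100 kb away.

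Shared regions at starts were wider than distal ones, with medians of 851 and 642 bases. Their fold enrichments were close, with medians of 4.31, 5.23, 4.92 and 5.04 at starts and 4.18, 5.26, 4.78 and 4.83 at distal regions in WT unwounded, WT wounded, cKO unwounded and cKO wounded keratinocytes. The median log2 ratio of WT wounded over WT unwounded was 0.24 at starts and 0.30 at distal regions, and that of cKO wounded over WT wounded was -0.04 and -0.10. Density along the genome ran from 2.85 shared regions per Mb on chromosome 14 to 4.54 on chromosome 19 among the autosomes. It was 1.39 on chromosome X, and chromosome Y held 1 region.

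Base composition, which the rule did not use, separated the 2 kinds of place. In windows of 300 bases at the midpoint, the median GC content was 65.0% at starts (quartiles 58.3% and 70.7%) and 48.3% at distal regions (44.3% and 52.7%). Windows with more than 50% GC and an observed to expected CpG ratio above 0.6 made up 77.6% of shared regions at starts and 4.50% of distal ones. The corresponding shares were 58.8% and 3.03% among regions in 1 to 3 lists, and 47.4% over the starts of all protein-coding genes. Distal shared regions had 10.9% of their bases soft-masked on average, as did distal regions in 3 lists, against 15.1% in 1 list.

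Short motifs were searched on both strands of the same windows, where matches of different motifs may overlap. At starts the commonest was the GC box (GGGCGG), bound by SP family factors, in 67.9% of shared regions (66.6% to 69.1%) against 23.7% of windows at all annotated starts and 45.5% at protein-coding starts. The CCAAT box (CCAAT), bound by NF-Y, was in 36.9% of shared regions at starts against 38.1% of all starts. The ETS motif (CCGGAAG) was in 16.2% against 6.18%, the CTCF motif (AGNNGGCGC) in 13.3% against 5.42%, YY1 (AAGATGGCG) in 2.94% against 1.29%, NRF1 (GCGCATGCG) in 2.62% against 0.987% and CRE (TGACGTCA) in 2.66% against 1.21%. The TATA box (TATAAA) was in 3.32% against 14.7%. Except for CCAAT (30.1%), regions in 1 to 3 lists at starts lay nearer to the shared ones than all starts did, with 53% for the GC box, 11.4% for ETS, 12.5% for CTCF, 2.07% for YY1, 1.74% for NRF1, 2.07% for CRE and 5.79% for TATA. Over protein-coding starts ETS was in 11.4%, CTCF in 9.85%, YY1 in 2.2%, NRF1 in 2.09% and CRE in 2.34%. Several of these motifs hold CpG or are made of G and C, so their shares move with base composition, and the part of composition in them was not tested. Shared regions at starts with a CCAAT box had a median geometric mean of fold enrichment of 5.12, against 4.72 without, and with an ETS motif 5.12 against 4.79.

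A pair of windows at starts is printed to show such promoters. Each was the strongest, by geometric mean, of the shared regions considered that hold the named motifs. Part of the shared regions were left out of this choice, so a stronger one may lie among those. The first is at *Kifap3*, which encodes a kinesin adaptor, and was the strongest considered with ETS, GC box and NRF1 motifs. Its fold enrichments were 7.99, 7.41, 7.70 and 7.62 in WT unwounded, WT wounded, cKO unwounded and cKO wounded keratinocytes. The second is at *Scfd1*, which encodes a vesicle fusion protein, and was the strongest considered with a YY1 motif, with 7.50, 8.90, 7.70 and 8.18. Capitals mark every match to the motifs named above and in the next paragraphs, on either strand. Both are on mm10 (GRCm38.p6), strand +.
Kifap3, chr1:163779548-163779847: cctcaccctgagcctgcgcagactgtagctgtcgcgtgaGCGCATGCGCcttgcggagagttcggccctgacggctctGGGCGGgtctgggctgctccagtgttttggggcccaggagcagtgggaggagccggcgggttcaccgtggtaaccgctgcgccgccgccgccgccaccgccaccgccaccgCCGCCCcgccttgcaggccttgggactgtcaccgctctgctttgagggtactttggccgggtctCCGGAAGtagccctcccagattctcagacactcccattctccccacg
Scfd1, chr12:51377335-51377634: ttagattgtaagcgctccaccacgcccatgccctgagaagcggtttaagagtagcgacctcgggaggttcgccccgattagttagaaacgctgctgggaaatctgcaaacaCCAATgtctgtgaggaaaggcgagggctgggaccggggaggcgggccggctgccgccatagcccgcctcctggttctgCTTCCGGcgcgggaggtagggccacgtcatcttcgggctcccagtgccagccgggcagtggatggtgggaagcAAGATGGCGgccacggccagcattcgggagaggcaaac
The first window holds an ETS match, a pair of GC boxes and a palindromic run matched by NRF1 on both strands, and the second a YY1, an ETS and a CCAAT match.

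In percentage points, distal shared regions differed from those at starts most in AP-1 and the GC box. The AP-1 motif (TGANTCA), bound by FOS and JUN family dimers, was in 42.7% of them (41.2% to 44.2%), in 34.4% of distal regions in 1 to 3 lists (33.8% to 35.0%), in 6.32% of shared regions at starts and in 7.46% of all annotated starts. The TEAD motif (GGAATG) was in 20.5%, against 20.6% of other distal regions, 10.3% of shared regions at starts and 15.1% of all annotated starts. C/EBP (TTGCNNAA) was in 16.1%, against 16.6%, 6.32% and 10.7%. The grainyhead-like motif (AACNNGTT) was in 8.21% (7.43% to 9.08%), against 7.43% (7.12% to 7.76%), 2.96% and 4.17%. In distal regions of 3 lists alone AP-1 was in 39.0% (37.8% to 40.2%) and the grainyhead-like motif in 8.26% (7.61% to 8.96%), so the share of the latter did not set shared regions apart from those. A p53 family motif, CATG and CATG with any 6 bases between, was in 1.48%, against 1.77% of other distal regions, 0.152% of shared regions at starts and 0.895% of all annotated starts. The CTCF motif was in 1.86%, against 2.61% of other distal regions. The motifs searched first at starts were also found, with CCAAT in 33.3%, against 34.2% of other distal regions, TATA in 11.6%, against 13.8%, and the GC box in 11.1%, against 9.18%. At 16.6% of distal shared regions and 8.95% of those at starts no motif searched was found, which says only that these letters were not in the window.

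The 1815 distal shared regions with an AP-1 motif had median fold enrichments of 4.29, 5.50, 4.95 and 4.98 in WT unwounded, WT wounded, cKO unwounded and cKO wounded keratinocytes, against 4.10, 5.08, 4.65 and 4.71 in the 2434 without. Their median log2 ratio of WT wounded over WT unwounded was 0.33, against 0.27. For the grainyhead-like motif, 349 distal regions with a match had a median log2 ratio of cKO wounded over WT wounded of -0.12, against -0.10 in 3900 without, and of cKO unwounded over WT unwounded of 0.16 in both. Both motifs, AP-1 and grainyhead-like, occurred in 137 distal regions. The grainyhead-like motif was in 7.55% of those with AP-1 and 8.71% of those without.

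The strongest distal regions considered with AP-1 beside a grainyhead-like or a TEAD match are printed, since these pairs join factors named for epidermis. Part of the shared regions were again left out of the choice. The first had fold enrichments of 6.45, 8.35, 6.94 and 7.23, and its nearest protein-coding start, that of the phosphatase gene *Dusp6*, was 133204 bases away. The second had 6.22, 9.29, 8.46 and 6.72, and lay 253499 bases from that of the transcription factor gene *Sox4*. Capitals mark motif matches as before, on mm10, strand +.
Distal region with AP-1 and grainyhead-like motifs, chr10:99396648-99396947: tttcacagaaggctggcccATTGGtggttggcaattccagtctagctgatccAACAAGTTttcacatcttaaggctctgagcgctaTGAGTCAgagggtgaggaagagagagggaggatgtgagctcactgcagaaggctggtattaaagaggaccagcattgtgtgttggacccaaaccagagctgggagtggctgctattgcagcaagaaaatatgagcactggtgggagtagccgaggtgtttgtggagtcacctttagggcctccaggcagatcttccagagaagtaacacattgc
Distal region with AP-1 and TEAD motifs, chr13:28699712-28700011: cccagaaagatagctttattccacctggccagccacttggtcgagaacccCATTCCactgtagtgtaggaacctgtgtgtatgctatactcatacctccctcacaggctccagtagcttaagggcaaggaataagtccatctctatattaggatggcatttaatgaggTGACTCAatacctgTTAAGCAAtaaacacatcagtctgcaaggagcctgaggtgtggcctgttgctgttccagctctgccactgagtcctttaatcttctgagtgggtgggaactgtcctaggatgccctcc
Each holds 1 AP-1 match. The first also has a CCAAT match, and the second a C/EBP match.

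Distance does not assign a distal region to a gene, so the nearest protein-coding start is given as a position only. The 4252 distal regions were nearest to 2676 protein-coding genes, of which 80.7% had RNA that passed the expression filter, against 60.8% of all 21924 protein-coding genes. The genes nearest to the most distal regions were the zinc finger factor *Klf6* with 15, the adhesion gene *Flrt3* with 13, the Notch ligand *Jag1* with 11, and the adhesion receptor *Adgrl2* and the hair follicle factor *Sox9* with 10 each. Of 20 epidermal transcription factors, 13 were nearest to 38 distal regions in all, among them *Gata3* with 6, *Maf* with 4 and *Trp63* with 2. Of 16 AP-1 and early response genes, 6 were nearest to 30, of which *Klf6* took 15 and *Myc* 7.

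The 5272 shared regions at starts carried the starts of 6815 annotated genes, of which 5473 were protein coding. A single gene started at 3775 of them, 2 genes at 1367 and 3 or more at 130. Starts lay on both strands at 1371, or 26.0%. The RNA table listed 24421 symbols, of which 23376 matched the annotation directly and 651 through an older symbol. It held 5669 of the 6815 genes, and 5332 of these passed the expression filter that 14045 genes passed in all. The passing share was 94.1% (93.4% to 94.6%) near shared regions, 85.4% (84.5% to 86.3%) for genes near a region in 1 to 3 lists only and 27.3% (26.5% to 28.1%) for genes with no region within 1 kb. Genes near shared regions took 40.0% to 41.4% of counts in each of the 7 libraries. The share was much the same, 41.1% to 42.3%, for genes near a region in 1 to 3 lists only.

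Levels were compared between genes as CPM, each gene's counts scaled to library size, per kb of exon. The median over genes near shared regions was 8.11 and 8.14 in the WT unwounded libraries, 8.16 and 8.02 in WT wounded, 8.11 in cKO unwounded, and 7.97 and 8.16 in cKO wounded. For genes near other regions it ran from 6.39 to 6.69, and for genes with no region near from 0.950 to 1.17. When tested genes were ranked by this level, the share with a shared region within 1 kb was 10.5% in the lowest of 10 equal groups, 33.1% in the group ranked 3 from the bottom, and between 41.5% and 48.1% in the upper 7. Within genes near shared regions, a stronger region did not go with more RNA. The median level was 11.2 CPM per kb in the 25% of genes with the lowest fold enrichment, then 8.91 and 7.56, and 5.93 in the 25% with the highest. Over these 5332 genes Spearman's rho of fold enrichment and level was -0.142, a description across genes, which are not independent.

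Genes with a shared region at a start were counted in gene lists. Among genes used by most cells, this held for 18 of 30 splicing factors, 15 of 25 cell cycle genes, 16 of 31 replication-dependent histones, 12 of 24 translation initiation factors, 15 of 31 proteasome subunits, 7 of 15 glycolysis genes, 17 of 41 cytosolic ribosomal proteins, 12 of 30 subunits of respiratory chain complex I and 9 of 25 chromatin regulators. Among regulators it held for 8 of 16 AP-1 and early response genes and 9 of 20 epidermal transcription factors, among them *Klf5*, *Grhl1*, *Grhl2*, *Tfap2c*, *Gata3*, *Cebpa* and *Sox9*. Among structural genes of keratinocytes it held for 6 of 25 cell junction genes, 3 of 12 basal genes, 1 of 12 wound genes and 0 of 12 suprabasal genes. Of the hair follicle list it held for 2 of 16, of melanocyte 1 of 8 (*Mitf*) and of neuron 2 of 12. It held for none of the 12 endothelial, 15 leukocyte, 10 fibroblast, 9 mural and smooth muscle, 7 erythroid and 12 hepatocyte genes. Of 18 genes named for the study it held for *Krt16* and *Nrg1*. Of the rest *Krt14*, *Itga5*, *Cdh1*, *Flt1*, *Tmsb10* and *Ptk2b* had another region within 1 kb, and *Grhl3*, *Krt5*, *Krt1*, *Krt10*, *Col17a1*, *Krt17*, *Krt6b*, *Arhgef19*, *Fscn1* and *Pdpn* had none. Over all protein-coding genes annotated, whether or not their RNA was found, the share was 5473 of 21924, and over all genes tested for RNA it was 5332 of 14045. Some lists lay close to the latter, and no list was tested against it. Among tested genes ranked by CPM per kb of exon, the share was 41.5% to 48.1% in the upper 7 of 10 equal groups. Several lists of genes used by most cells lay near that range, so their counts are not read as a trait of function. Within lists, the most abundant genes by CPM with a shared region included *Krt16*, *Klf5*, *Jun*, *Dsc3*, *Rpl5*, *Psmd7*, *Hnrnpf*, *Eif4g2*, *Mki67*, *Aldoa*, *Smc1a*, *Hist1h1c*, *Mitf*, *Sox9* and *Map2*. The most abundant without were *Krt14*, *Krt1*, *Krt17*, *Klf4*, *Fos*, *Dsp*, *Rplp0*, *Psmd2*, *Hnrnpu*, *Eif4g1*, *Ndufa10*, *Top2a*, *Pkm*, *Kmt2d*, *Hist1h1d*, *Vwf*, *Lyz2*, *Fbln1*, *Notch3*, *Kit*, *Alas2*, *Krt15*, *Tubb3* and *Cyp2e1*.

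Several abundant keratins had no shared region at their start. *Krt14*, a keratin of the basal layer with 12102 to 19489 CPM in the 7 libraries, had a region 71 bases from its start that was listed in WT wounded (3.29) and cKO unwounded (3.15) only. *Krt5*, its partner, with 10853 to 15492 CPM, had its nearest shared region 551008 bases away. The suprabasal keratins *Krt1* (1486 to 4060 CPM) and *Krt10* (1458 to 4345 CPM) had theirs 554581 and 859638 bases away. For *Grhl3* the distance was 1334882 bases, and its nearest region of any kind lay 1756 bases from its start, in WT wounded and cKO unwounded. *Trp63*, which encodes p63, had its nearest shared region 58965 bases away, and *Klf4* had a region in 3 lists at its start that lacked WT unwounded. Basal genes with a shared region included the integrin *Itgb1* (3.76, 4.29, 4.76 and 4.83 in WT unwounded, WT wounded, cKO unwounded and cKO wounded) and the laminin chain *Lamb3* (3.59, 4.40, 3.76 and 4.17).

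Among genes near shared regions, the highest mean CPM, a scale that also grows with gene length, was that of the translation elongation factor *Eef1a1*, with 5968 and 6072 in WT unwounded, 5419 and 5691 in WT wounded, 7181 in cKO unwounded, and 6469 and 7112 in cKO wounded libraries. Next was *Thbs1*, a matrix glycoprotein, with 3809 and 3466, 5571 and 4500, 5759, and 4691 and 4389. Then came *Lars2*, a mitochondrial tRNA synthetase, which differed most between replicates, at 5377 and 1559 in the cKO wounded libraries. The others were the chaperone *Hspa8*, the ribosomal protein *Rpsa*, the myosin *Myh9*, the lamin *Lmna*, *Tpt1*, the desmosomal cadherin *Dsc3* and the AP-1 subunit *Jun*, with means from 3112 down to 2530 CPM. The *Jun* region at chr4:95052003-95053497 was 1495 bases wide and had 3.58, 3.22, 3.36 and 3.73.

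The first RNA comparison asks what changes at the wound edge in WT keratinocytes. By the edgeR quasi-likelihood test, 123 of the 5332 genes near shared regions (2.31%) were higher in WT wounded libraries at an unadjusted P under 0.05, against 3.18% of all 14045 genes tested. Lower were 70 (1.31%), against 1.67%. After Benjamini-Hochberg adjustment 0 of the 5332 passed 0.05, against 4 genes (0.0285%) of all tested. DESeq2 gave 196 at an unadjusted P under 0.05 (3.68%, against 5.23% of all tested) and 1 after adjustment. With each WT library left out in turn, the share near shared regions stayed under that of all genes tested. Leaving out WT wounded replicate 1 turned the balance, to 101 higher and 130 lower at an unadjusted P under 0.05, while leaving out WT unwounded replicate 1, WT unwounded replicate 2 or WT wounded replicate 2 gave 161 and 74, 114 and 62, and 157 and 104. Leaving out WT wounded replicate 1 also gave an adjusted count of 3, and leaving out WT wounded replicate 2 gave 1. Among genes with a mean of at least 10 CPM, a limit chosen after seeing the data, 3.66% of those near shared regions and 4.87% of all had an unadjusted P under 0.05 in either direction. All genes include those near shared regions, and the difference was not tested. In bulk RNA, a change in the mix of cells and a change in RNA per cell cannot be told apart.

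The genes named here were among those with the largest log2 fold changes of the 10 genes near shared regions with the smallest P and WT groups that did not overlap. *Parm1*, which encodes a membrane protein, had 3.32 and 3.59 CPM in WT unwounded, 14.1 and 6.76 in WT wounded, 9.60 in cKO unwounded, and 8.13 and 9.12 in cKO wounded libraries. Its log2 fold change was 1.60 (unadjusted P 0.00239, adjusted p 0.517 by the edgeR quasi-likelihood test with Benjamini-Hochberg), and without WT wounded replicate 1 it was 0.96 with an unadjusted P of 0.0822. *Nrg1*, a growth factor for ErbB receptors, had 7.15 and 5.32, then 15.2 and 20.4, 3.17, and 10.7 and 4.90 (log2 fold change 1.51, adjusted p 0.522). The intermediate filament gene *Vim* had 8.29 and 9.26, then 15.3 and 29.3, 3.25, and 22.8 and 29.3 (1.34, adjusted p 0.416). The tubulin gene *Tubb6* had 54.9 and 60.1, then 85.7 and 149, 30.8, and 101 and 60.0 (1.03, adjusted p 0.437). Leaving out WT wounded replicate 2 brought the log2 fold change of *Vim* to 0.79 and of *Tubb6* to 0.57. That both wounded WT libraries lay above both unwounded ones in each of these 4 genes follows from that choice. No adjusted p passed.

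*Vim* is also made by cells of the dermis and by blood vessels, whose markers moved in part with wounding. The 12 endothelial markers summed to 5.36 and 7.64 CPM in WT unwounded, 38.5 and 25.7 in WT wounded, 1.74 in cKO unwounded, and 18.3 and 23.0 in cKO wounded libraries. Of them 5 were higher in WT wounded libraries at an unadjusted P under 0.05, and the most abundant, *Vwf*, ran from 0.0756 to 7.60 CPM. Endothelial markers at 0 counts numbered 3 and 4 in WT unwounded, 0 and 3 in WT wounded, 8 in cKO unwounded, and 0 and 1 in cKO wounded libraries. The 14 leukocyte markers in the table summed to 0.984 to 5.52 CPM. Their most abundant, *Lyz2*, was at 0 in every unwounded library, and *Cd3e*, *Cd4* and *Cd79a* were at 0 throughout. The 10 fibroblast markers summed to 77.8 and 87.1, 80.9 and 108, 29.1, and 103 and 78.1 CPM, mostly from *Fbln1*. The 9 mural and smooth muscle markers summed to 234 and 229, 252 and 207, 302, and 210 and 171 CPM. A large part came from *Notch3*, with 103 and 106, 93.7 and 117, 140, and 130 and 98.5 CPM. Of the 8 mural and smooth muscle markers tested, 2 were higher and 0 lower in WT wounded libraries at an unadjusted P under 0.05. In cKO wounded against WT wounded libraries 3 were lower and 0 higher. The sort was meant to remove blood and endothelial cells. The part of other cells in the *Vim* values was not tested.

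*Krt16*, a keratin of wounded epidermis, was the wound gene with a shared region, 100 bases from its start at chr11:100249002-100249454. Fold enrichment there was 3.85 in WT unwounded, 5.78 in WT wounded, 3.97 in cKO unwounded and 3.94 in cKO wounded keratinocytes, so the WT wounded list stood above the other 3. Its RNA was 1769 and 1954 CPM in WT unwounded, 2434 and 3358 in WT wounded, 1371 in cKO unwounded, and 3004 and 2122 in cKO wounded libraries. The WT log2 fold change was 0.64 (unadjusted P 0.00294, adjusted p 0.559), and without WT wounded replicate 2 it was 0.38 (unadjusted P 0.0723). RNA in cKO wounded libraries overlapped that of WT wounded libraries.

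The second comparison asks how wounded keratinocytes differ between genotypes, and it shares the WT wounded libraries with the first. Near shared regions, 78 of 5332 genes (1.46%) were higher in cKO wounded than in WT wounded libraries at an unadjusted P under 0.05 by the edgeR quasi-likelihood test, against 1.96% of all tested. Lower were 87 (1.63%), against 2.08%. After Benjamini-Hochberg adjustment 0 passed 0.05, and the share over all genes was also 0%. DESeq2 gave 157 at an unadjusted P under 0.05 (2.94%, against 3.96% of all tested) and 0 after adjustment. With each wounded library left out in turn, the share near shared regions stayed under that of all genes tested. Both shares were highest without WT wounded replicate 2. Leaving out WT wounded replicate 2 raised the unadjusted count from 165 to 285 (145 higher and 140 lower) and the adjusted count to 2, leaving out cKO wounded replicate 1 gave 129 higher and 106 lower, and leaving out WT wounded replicate 1 gave an adjusted count of 1. The balance turned to more genes higher than lower without WT wounded replicate 1, WT wounded replicate 2 or cKO wounded replicate 1. At a mean of at least 10 CPM the share in either direction was 3.35% near shared regions and 4.69% over all.

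Higher in cKO wounded libraries were *Skint1*, an immunoglobulin family gene of epidermis and thymus, at 54.3 and 75.6 CPM against 27.3 and 17.6 in WT wounded libraries (log2 fold change 1.53, unadjusted P 0.00168). In unwounded skin it had 36.2 and 10.5 in WT and 47.0 in cKO libraries. *Rgcc*, a cell cycle regulator, had 60.6 and 122 against 43.0 and 46.4 (1.03), but 0.44 with an unadjusted P of 0.0798 without cKO wounded replicate 2. *Tppp*, which acts on tubulin, had 80.0 and 79.8 against 43.9 and 42.8 (0.88, unadjusted P 5.81e-04), and the small heat shock gene *Hspb8* had 105 and 103 against 72.0 and 53.6 (0.72). *Pof1b*, an actin-binding gene on chromosome X, had 240 and 323 against 184 and 188 (0.60), but 0.37 with an unadjusted P of 0.0742 without cKO wounded replicate 2. In the cKO unwounded library *Rgcc*, *Tppp*, *Hspb8* and *Pof1b* had 91.5, 94.1, 183 and 305 CPM, each above both WT unwounded libraries. All adjusted p in these 5 were at least 0.783.

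Lower in cKO wounded libraries was *Tgfb2*, a growth factor ligand, at 8.88 and 4.56 CPM against 17.6 and 15.8 in WT wounded libraries (log2 fold change -1.31, unadjusted P 0.00192). *St3gal1*, a sialyltransferase, had 18.0 and 8.70 against 30.9 and 29.6 (-1.18), and its log2 fold change was -1.78 without cKO wounded replicate 1 and -0.75 without cKO wounded replicate 2. *Nedd9*, a scaffold of focal adhesions, had 70.0 and 93.4 against 186 and 114 (-0.88), but -0.48 with an unadjusted P of 0.0555 without WT wounded replicate 1. Groups that do not overlap were asked of every gene named for this comparison, so that they did not in these 3 follows from the rule. Every adjusted p was 1. At the same starts the fold enrichment in WT wounded and cKO wounded keratinocytes was 3.47 and 4.68 for *Tgfb2*, 6.76 and 5.75 for *St3gal1*, and 5.67 and 4.85 for *Nedd9*. So *St3gal1* and *Nedd9* had the lower fold enrichment in cKO, while *Tgfb2* had the higher.

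Over all 5332 genes, the ratio of fold enrichment and the RNA fold change had a Spearman's rho of -0.059 for WT wounded against WT unwounded and 0.004 for cKO wounded against WT wounded, a description across genes.

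The last comparison sets cKO wounded against cKO unwounded keratinocytes, where a single unwounded library shows no spread of its own and no test was run. A gene was counted when both wounded libraries differed from the unwounded one by at least 2-fold the same way. Near shared regions 135 of 5332 genes (2.53%) were higher, against 5.69% of all tested, and 87 (1.63%) were lower, against 3.89%. Together these are 222, and 216 without genes on chromosomes X and Y, a set chosen after seeing the data. With 1 wounded library at a time in place of both, the count was 511 without cKO wounded replicate 1 (308 higher and 203 lower, together 9.58% against 18.3% of all tested) and 539 without cKO wounded replicate 2 (260 higher and 279 lower, together 10.1% against 19.5%), so which direction had more genes rested on the library used. At a mean of at least 10 CPM it was 60, or 1.54%, against 2.65% of all genes at that level, and with at least 10 counts in every library it was 121, or 2.46%, against 4.13%.

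The largest differences among genes with a mean log2 CPM of at least 4 began with *Stfa3*, a cysteine protease inhibitor, at 171 and 170 CPM in cKO wounded and 9.60 in cKO unwounded libraries. In WT it had 81.7 and 257 unwounded and 71.5 and 186 wounded, so its WT libraries did not separate by wounding. The other 4 higher genes were *Vaultrc5*, a vault RNA (39.4 and 26.7 against 3.93), the fatty acid binding gene *Fabp5* (1496 and 1105 against 303), the cell division gene *Cdca3* (55.4 and 31.4 against 11.4) and the kallikrein *Klk10* (27.6 and 25.5 against 7.71). Lower were the kinase *Pdk4* (23.4 and 18.7 against 113), the transcription regulator *Id2* (9.70 and 12.0 against 41.6), the semaphorin *Sema3e* (38.3 and 28.9 against 107), the clock gene *Per1* (223 and 145 against 529) and the G protein regulator *Rgs2* (45.7 and 34.8 against 114). For all 10 the WT wounded against WT unwounded test gave an unadjusted P of at least 0.102. What sets the lone cKO unwounded library apart, its sex included, was not tested against these values.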

How the data were processed

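ATAC-seq peaks and RNA-seq counts of sorted mouse epidermal keratinocytes were used, on mm10. The RNA files hold raw counts per gene symbol, which the authors made with FastQC and kallisto by their processing notes, while the closing tally lines are of a kind other counters write, and the strand setting is not stated. The peak files hold, as deposited, the fold enrichment of each peak over the local background of its own library by MACS2, after trimming with Trimmomatic and alignment with bowtie2 by the authors. Their -log10 p-values and -log10 q-values, also from MACS2 by the authors, served to rank and filter peaks in alternatives. The peak names state that no control was used. The cKO unwounded RNA library carries number 2 in its title and number 1 in its file name, and groups follow the titles.

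The 4 lists were merged with bedtools 2.31.1 at distance 0, and regions overlapping a peak in all 4 were kept. A region's fold enrichment in a list is that of its highest peak. Gene starts are those of GENCODE vM21 basic transcripts, within 1 kb. Motifs were searched in windows of 300 bases at region midpoints. RNA was normalized by TMM in edgeR 4.0.16 (R 4.3.3), filtered with filterByExpr, which kept 14045 genes, and fitted with 1 mean for each of the 4 groups over 7 libraries. WT wounded was tested against WT unwounded, and cKO wounded against WT wounded, by the quasi-likelihood test, and P was adjusted by Benjamini-Hochberg over the 14045 genes. The biological coefficient of variation was 31.6%. For cKO wounded against cKO unwounded, with 1 unwounded library, a gene was counted when both wounded libraries differed by at least 2-fold at a prior count of 2. Tables were handled with Python 3.11.15, numpy 2.4.6, pandas 2.3.3 and scipy 1.17.1.

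Named genes were the 10 with the highest mean CPM near shared regions, for each tested comparison up to 5 with the largest rise and 5 with the largest fall among the 10 with the smallest P, since fewer than 10 passed adjustment, with groups that do not overlap and a mean log2 CPM of at least 1, the 5 higher and 5 lower by the 2-fold rule with a mean log2 CPM of at least 4, the most abundant gene of each list with and without a shared region, and genes named for the study. Some genes that this rule names are not reported here. Alternatives were stricter peaks, lists of equal length, other merge and start distances, other overlaps, start sets and windows, RLE factors, DESeq2 1.42.0, other filters and prior counts, only the libraries compared, the replicate number as a block and leaving out each library. A minimum mean of 10 CPM and leaving out genes on chromosomes X and Y were added after seeing the data. The shared regions and the gene lists were chosen with earlier results of these data known.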

Additional observations from a re-analysis of the deposited data

Results flagged for a closer look

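Among 33 named genes near shared regions, 4 moved one way with wounding in both WT wounded libraries and the other way in both cKO wounded libraries, on the log2 CPM scale. The log2 difference was 0.46 in WT and -0.34 in cKO for *Thbs1* (a difference of 0.81), -0.17 and 0.21 for *Rpsa* (-0.39), 1.47 and -0.15 for *Parm1* (1.62), and 0.32 and -1.96 for *Tgfb2* (2.28). These differences were not tested. The same was not counted over all genes tested, so the 4 of 33 has no share to stand beside. Part of the 33 were named for a change in these same libraries. The cKO values rest on the 1 unwounded library that had *Xist* RNA and no RNA of Y chromosome genes, so genotype and sex cannot be told apart in them.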

How the results depend on the processing

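The count of 9524 shared regions was 5317 with peaks of at least 4-fold enrichment and 5490 with lists of equal length. The share with a gene start within 1 kb, 55.4%, was 57.3% at a q-value of at most 0.01, 59.2% at 4-fold enrichment, 58.8% with lists of equal length, 54.0% within 500 bases, 57.7% within 2000 bases, 51.6% with the 5 prime ends of genes and 51.2% with protein-coding genes. The median geometric mean of fold enrichment, 4.79, was 5.01, 5.32 and 5.31 in the first 3 of these settings and 4.83 with an overlap of at least 50%. In the same 4 settings the median of each single library lay above its 95% interval as well. The AP-1 share of 22.6% was 17.2% in windows of 200 bases, 29.0% in windows of 500 bases and 42.7% in distal regions alone, and the GC box share of 42.5% was 34.8%, 50.8% and 11.1%, and 45.0% with lists of equal length. Wider windows hold more matches by construction. The share of genes with RNA, 94.1%, was 86.9% when at least 10 counts were asked in every library and 93.2% within 2000 bases.

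For WT wounded against WT unwounded, 193 genes near shared regions became 104 with lists of equal length, where fewer regions were shared. The share went from 3.62% to 3.13%, against 4.84% of all tested in both. Without each library in turn, the share near shared regions stayed under that of all genes tested. The adjusted count of 0 became 1 with DESeq2, 13 with no filter, and 0 to 3 without each library in turn, up to 3 without WT wounded replicate 1. For cKO wounded against WT wounded, 165 became 98 with lists of equal length and 122 to 285 without each library in turn, the highest without WT wounded replicate 2. The adjusted count of 0 became 7 with no filter and 0 to 2 without each library in turn. A lone library left in a group is assumed to vary like the other groups. The 2-fold count of 222 became 121 with at least 10 counts in every library, 511 and 539 without cKO wounded replicate 1 and 2, where 1 library has to pass instead of 2, and 60 with a mean of at least 10 CPM, chosen after seeing the data. With the replicate block the count was 225 (4.22%, against 5.12% of all tested) for WT wounded against WT unwounded. For cKO wounded against WT wounded it was 199 (3.73% against 4.24%). After adjustment 0 passed in both. Except where the construction shows it, the cause was not tested.

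The log2 difference of *Krt16* between cKO wounded and WT wounded libraries, -0.18, changed sign to 0.08 without WT wounded replicate 2 and 0.05 without cKO wounded replicate 2, a range of -0.44 to 0.08 without each library in turn, and the cause was not tested. At -0.44, without cKO wounded replicate 1, its unadjusted P was 0.0331. Of the other tests of named genes under these alternatives, 125 kept their direction and their side of the threshold and 5 lost the threshold.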

Other observations

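Peak lists with 1 pooled library in each condition, whose single depths are not known here, do not show whether a region absent from a list was closed or under the calling threshold, so the number of shared regions has no error estimate. With 1 or 2 RNA libraries in a group and a coefficient of variation of 31.6%, small changes would be missed, and a count of 0 after adjustment does not show that genes did not change. Start sites within 1 kb do not show which gene a region acts on. Reads, alignments and protein were not analysed here.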
